A study of Mus musculus with 8 samples.

Results

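The prostaglandin genes described here are 9 rows of a table of 25450 named genes, chosen by name: PLA2G4A, PTGS1, PTGS2, PTGES, PTGER1, PTGER2, PTGER3, PTGER4 and HPGD, written below as the mouse symbols. All 9 were found, each in 1 row. The choice was made with earlier results of these data known, so levels and differences are given as descriptions with no test. The values are CUT&Tag signals, in which an antibody to a histone mark directs a transposase to the chromatin around it and the released DNA is sequenced. The cells came from established mouse lines of pancreatic ductal adenocarcinoma (PDAC) on a C57BL/6 background. The labels call them cultured, whereas the title of the series says they were sorted out of orthotopic tumours. Setd2, which trimethylates lysine 36 of histone H3, was knocked out (KO) or wild type (WT). The groups were H3K27ac at promoters in KO and WT, called the first H3K27ac pair below, H3K27ac at promoters with the word vitro in the label in KO and WT, H3K27me3 at promoters in KO and WT, and H3K36me3 over gene bodies in KO and WT. How the knockout was made, and how many clones or tumours stand behind a line, was not given in the labels.

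Prostaglandin E2 is made in 3 enzymatic steps: a phospholipase A2 frees arachidonic acid from membranes, a cyclooxygenase turns it into prostaglandin H2, and a terminal synthase turns that into prostaglandin E2. Prostaglandin E2 acts on neighbouring cells through 4 G protein-coupled receptors, EP1 to EP4, and is inactivated by 15-hydroxyprostaglandin dehydrogenase. In tumours the pathway is known for inflammation, for effects on immune cells and for the inducible cyclooxygenase, Ptgs2. H3K27ac marks active promoters and enhancers, H3K27me3 is the mark of Polycomb repression, and H3K36me3 is laid down over transcribed gene bodies.

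Each of the 8 groups had 1 library, so no difference has a replicate check. Signals are given per kilobase, the deposited value times 1000. Every promoter value, multiplied by 6000, was a whole multiple of a step fixed within its library, so the number of tags (sequenced fragment ends) in each window of 6000 bases could be recovered. The 6 promoter libraries held 4328440 to 6626242 tags summed over all windows, with a median of 58 to 149 tags a window. Between 67.4% and 81.7% of the positive tag counts were even, so intervals below count 2 tags as 1 fragment. They are exact 95% binomial (Clopper-Pearson) intervals and cover counting error only, since PCR copies cannot be told from separate molecules. The Setd2 gene itself had a gene-body H3K36me3 signal of 2.32 in KO and 2.38 in WT, which measures the mark over the locus and not the deletion.

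The promoters that the results turn on are printed next, because the acetylation ratios of Ptgs2 and Pla2g4a stood highest among the 9 genes, Ptges is the synthase that works with Ptgs2, and Ptger3 and Ptger4 held the most CG dinucleotides but unlike marks. Each is 300 bases from RefSeq (GRCm38.p6), from 250 before to 50 after the annotated start, on the gene's own strand and with each CG dinucleotide in capitals. The positions are chr1:150099781-150100080 on the plus strand for Ptgs2, chr1:149961241-149961540 on the minus strand for Pla2g4a, chr2:30903248-30903547 on the minus strand for Ptges, chr3:157566626-157566925 on the plus strand for Ptger3 and chr15:5244138-5244437 on the minus strand for Ptger4.
Ptgs2: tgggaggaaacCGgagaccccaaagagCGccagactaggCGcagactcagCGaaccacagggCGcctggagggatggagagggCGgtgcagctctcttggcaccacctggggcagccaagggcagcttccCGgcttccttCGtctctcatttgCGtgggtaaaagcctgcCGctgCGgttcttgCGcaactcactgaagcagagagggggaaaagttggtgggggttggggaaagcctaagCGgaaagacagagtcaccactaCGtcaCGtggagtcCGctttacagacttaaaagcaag
Pla2g4a: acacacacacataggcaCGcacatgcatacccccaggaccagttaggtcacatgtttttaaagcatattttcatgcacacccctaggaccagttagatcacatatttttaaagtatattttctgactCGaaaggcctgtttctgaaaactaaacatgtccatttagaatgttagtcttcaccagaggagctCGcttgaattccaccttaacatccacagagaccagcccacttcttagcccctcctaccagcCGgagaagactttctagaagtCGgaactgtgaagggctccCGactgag
Ptges: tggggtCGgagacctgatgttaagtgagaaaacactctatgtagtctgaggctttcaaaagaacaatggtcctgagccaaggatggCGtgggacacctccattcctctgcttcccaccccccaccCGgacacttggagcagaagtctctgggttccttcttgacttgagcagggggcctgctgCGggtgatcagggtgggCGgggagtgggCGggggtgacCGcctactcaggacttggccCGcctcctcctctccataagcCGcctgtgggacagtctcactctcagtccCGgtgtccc
Ptger3: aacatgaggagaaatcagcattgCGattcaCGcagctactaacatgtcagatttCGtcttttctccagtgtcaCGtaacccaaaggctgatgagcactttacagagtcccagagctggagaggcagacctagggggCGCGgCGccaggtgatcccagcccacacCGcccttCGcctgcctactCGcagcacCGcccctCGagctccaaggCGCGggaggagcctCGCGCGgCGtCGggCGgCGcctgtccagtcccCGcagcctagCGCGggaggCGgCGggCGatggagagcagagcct
Ptger4: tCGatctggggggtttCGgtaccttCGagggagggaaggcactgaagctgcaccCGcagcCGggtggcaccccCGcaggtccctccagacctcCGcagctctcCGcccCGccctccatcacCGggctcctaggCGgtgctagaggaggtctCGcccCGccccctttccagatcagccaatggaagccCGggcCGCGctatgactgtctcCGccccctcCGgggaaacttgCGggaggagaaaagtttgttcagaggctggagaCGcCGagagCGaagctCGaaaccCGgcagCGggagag

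Promoter sequences were found for 8 of the 9 genes, with 2 starts for Pla2g4a, of which the one printed is the start the deposited coordinates use. Ptger3 held 27 CG dinucleotides and Ptger4 25, more than 84.5% and 81.6% of the 32851 RefSeq promoters. Ptgs2 held 16, Hpgd 12, Ptges 10, Ptgs1 and the printed Pla2g4a start 6 each, and Ptger2 3, against a median of 7 over all promoters. A search of both strands for set motifs found the CRE core letters CGTCA in Ptgs2 alone among these genes (bases 264 to 268 of the printed sequence, present in 20.8% of all promoters). The E-box CACGTG lay at bases 267 to 272 of Ptgs2, overlapping the CRE letters, and occurs in 7.15% of promoters. The GC box GGGCGG was found in Ptgs2, Ptges, Ptger3, Ptger4 and Hpgd, and in 35.7% of promoters. TATAAA was found in Hpgd and at the second Pla2g4a start (13.6% of promoters), and CCAAT in Ptger2, Ptger4 and the second Pla2g4a start (37.4%). The full CRE TGACGTCA, the AP-1 letters TGANTCA, the NF-kB letters GGGANNTTC and the GATA letters AGATAA were in none of these windows, which says only that these letters are not in the 300 bases.

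Knockout cells carried more promoter H3K27ac than wild-type cells at the 2 genes that open the pathway, Pla2g4a and Ptgs2, in the pair without the vitro label and in the pair with it. Receptor genes and Hpgd were level or lower. In the first pair, 3 of the 9 genes passed 1.5-fold towards KO (Ptgs2, Pla2g4a and Ptges) and 1 was lower (Ptger3), where 33.3% of the 18720 genes measured were higher and 11.5% lower. In the vitro pair, 2 were higher (Ptgs2 and Pla2g4a) and 1 was lower (Ptgs1), where 10.9% of 19090 genes were higher and 13.7% lower. A gene counted as measured where its mean over the pair reached a floor, the 25th percentile of positive values, and the floor was added to both libraries before the log2 ratio. All 9 were measured in both pairs.

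**Figure D1:**
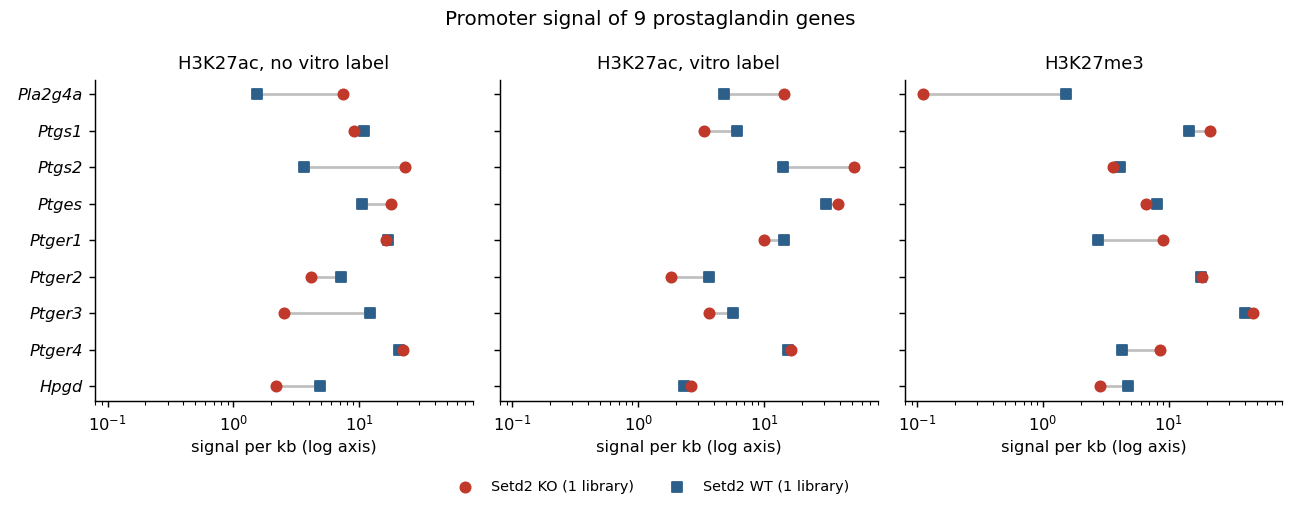
Promoter signal per kilobase (x axis, log scale) of the 9 genes (rows), in 3 panels for H3K27ac without the vitro label, H3K27ac with it, and H3K27me3; circles are the KO library, squares the WT library, and no error is shown because each point is 1 library. Ptgs2 and Pla2g4a lie further right in KO in both H3K27ac panels, and Ptger3 holds the most H3K27me3, 46.8 in KO and 40.4 in WT.

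Pla2g4a encodes cytosolic phospholipase A2 alpha, which releases arachidonic acid from membrane lipids (chromosome 1, 149829618 to 149961290, mm10, minus strand). Its promoter H3K27ac was 7.45 in KO and 1.55 in WT in the first pair, which are 136 and 28 tags. It was 14.5 in KO and 4.83 in WT in the vitro pair, from 253 and 84 tags. KO was the higher library in both, by 4.8-fold (2.67 to 9.24) and 3-fold (2.1 to 4.36). With the floor added, the log2 ratios were 1.15 and 1.25. Its WT promoter without the vitro label had the lowest H3K27ac among the 9 genes, at percentile 11 of all genes, and its KO promoter lay at percentile 47.6. H3K27me3 was nearly empty there, 0.11 in KO and 1.53 in WT, only 2 and 28 tags, so the pair fell under the floor. The counting interval of that ratio ran from 0.00169 to 0.471. No other member had so little of this mark in either library.

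Ptgs2 encodes the inducible cyclooxygenase COX-2 (chromosome 1, 150100031 to 150108227, mm10, plus strand). Its promoter H3K27ac was 23.3 in KO and 3.66 in WT in the first pair, from 426 and 66 tags. In the vitro pair it was 51.8 in KO and 14.1 in WT, from 905 and 246 tags. The KO promoter was the most acetylated of the 9 genes in both pairs, while the WT promoter stood in place 8 without the vitro label and in place 4 with it. The KO over WT ratio was 6.38 (4.4 to 9.5) and 3.66 (2.99 to 4.51). With the floor added it was 1.94 and 1.73 in log2. Of the 18720 genes measured, 52 had a higher ratio in the first pair, and 165 of 19090 had one in the vitro pair. Among the 6619 genes whose mean signal lay within 1.5-fold of that of Ptgs2, the median log2 ratio was 0.36 with an SD of 0.60, and Ptgs2 exceeded 99.5% of them. The same comparison in the vitro pair gave a median of -0.02, an SD of 0.55 and 99.2%. H3K27me3 at the promoter was 3.63 in KO and 4.06 in WT, and the ratio of 0.895 had an interval of 0.542 to 1.47, so no difference was detectable at this depth.

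Ptgs1 encodes the constitutive cyclooxygenase COX-1 (chromosome 2, 36230426 to 36252272, mm10, plus strand). Without the vitro label its H3K27ac was 9.04 in KO and 10.98 in WT, a ratio of 0.823 (0.607 to 1.11) that counting error could give. In the vitro pair it was 3.32 in KO and 6.15 in WT, from 58 and 107 tags, a ratio of 0.539 (0.331 to 0.863). KO was thus the lower library in each pair for this cyclooxygenase, where Ptgs2 was higher. H3K27me3 was 21.2 in KO and 14.4 in WT, a ratio of 1.48 (1.18 to 1.86), and its KO level lay at percentile 87.1 of all genes. Ptgs1 therefore carried more H3K27me3 than Ptgs2 in both genotypes, 386 against 66 tags in KO and 262 against 74 in WT, over windows of the same length.

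Ptges encodes microsomal prostaglandin E synthase-1, the inducible terminal synthase (chromosome 2, 30889471 to 30929863, mm10, minus strand). Its H3K27ac was 17.9 in KO and 10.6 in WT in the first pair, from 327 and 191 tags, and 38.5 in KO and 31.1 in WT in the vitro pair, from 674 and 542. The ratios were 1.69 (1.31 to 2.2) and 1.24 (1.05 to 1.46). The ratios of all genes in the first pair leaned towards KO (median 0.317 in log2), and relative to that shift Ptges stood at 0.29 in log2, short of 1.5-fold. On the same footing Ptgs2 stood at 1.62 and Pla2g4a at 0.84. H3K27me3 at Ptges was 6.60 in KO and 8.11 in WT, a ratio of 0.813 (0.569 to 1.16).

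**Figure D2:**
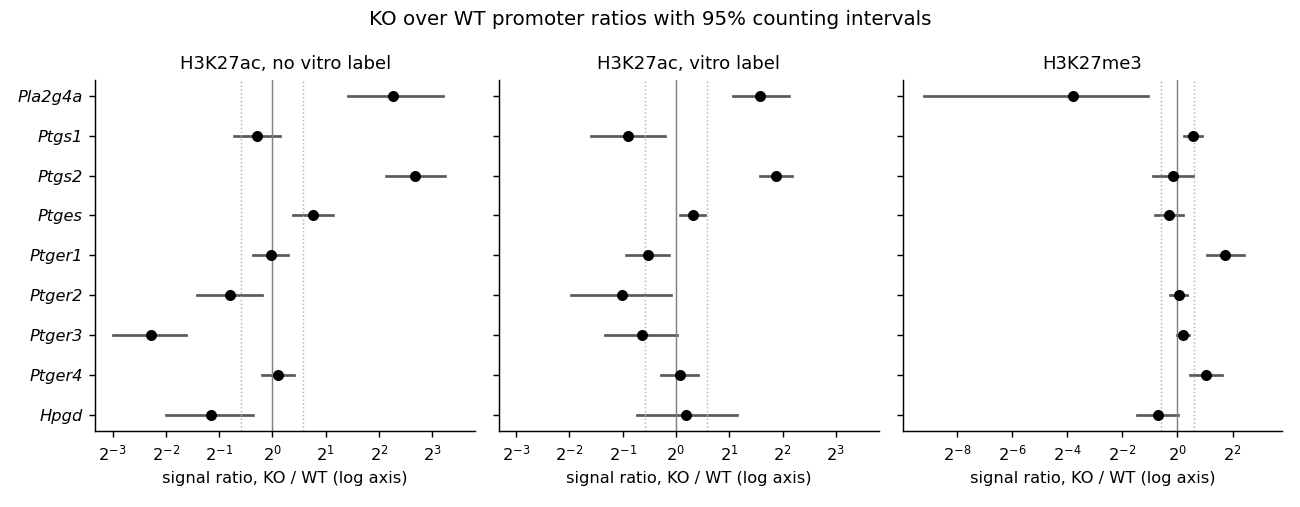
KO over WT ratio of promoter signal (x axis, log scale, no floor added) for the 9 genes (rows) in the 3 promoter pairs; bars are exact 95% counting intervals on fragments, the solid line marks equal signal and dotted lines mark 1.5-fold either way. Intervals for Ptgs2 (4.4 to 9.5 and 2.99 to 4.51) and Pla2g4a (2.67 to 9.24 and 2.1 to 4.36) lie right of the line in both H3K27ac panels, and the H3K27me3 panel has a wider axis because Pla2g4a had 2 tags in KO.

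Among the receptor genes, Ptger3 differed most in H3K27ac in the first pair. Ptger3 encodes EP3, which lowers cyclic AMP (chromosome 3, 157566892 to 157645888, mm10, plus strand), and its H3K27ac was 2.52 in KO and 12.2 in WT in the first pair, from 46 and 220 tags. That ratio was 0.207 (0.126 to 0.326), log2 -1.42 with the floor, and 222 of 18720 genes had a lower one. In the vitro pair Ptger3 had 3.66 in KO and 5.69 in WT, a ratio of 0.643 with an interval of 0.399 to 1.02. Its log2 ratios differed by -0.99 between the pairs, lower than in all but 5.53% of the genes measured in both. Ptger3 also carried the most H3K27me3 of the 9 genes, 46.8 in KO and 40.4 in WT, from 852 and 738 tags, and lay at percentiles 94.4 and 94.7 of all genes. That ratio was 1.16 (1 to 1.33).

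Ptger2 and Ptger4 encode EP2 and EP4, the receptors that raise cyclic AMP, and their promoters differed. Ptger2 (chromosome 14, 44988195 to 45003820, mm10, plus strand) had H3K27ac of 4.16 in KO and 7.21 in WT in the first pair, and 1.83 in KO and 3.68 in WT in the vitro pair. KO was lower in both pairs, with ratios of 0.577 (0.377 to 0.875) and 0.498 (0.255 to 0.934) on 32 to 130 tags. With the floor added the log2 ratios, -0.50 and -0.55, did not reach 1.5-fold. H3K27me3 was high at Ptger2 in both genotypes, 18.5 in KO and 18.0 in WT. Ptger4 (chromosome 15, 5206661 to 5244187, mm10, minus strand) was among the 3 most acetylated members in every H3K27ac library. It had 22.5 in KO and 20.8 in WT in the first pair and 16.4 in KO and 15.6 in WT in the vitro pair, with ratios of 1.08 (0.88 to 1.32) and 1.05 (0.822 to 1.33). Its H3K27me3 was 8.58 in KO and 4.22 in WT, from 156 and 77 tags, a ratio of 2.03 (1.36 to 3.07).

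Ptger1 encodes EP1, which raises cell calcium (chromosome 8, 83666678 to 83672753, mm10, plus strand). Its H3K27ac was 16.5 in KO and 16.9 in WT in the first pair and 10.01 in KO and 14.5 in WT in the vitro pair, with ratios of 0.978 (0.776 to 1.23) and 0.691 (0.52 to 0.915). Its H3K27me3 was 9.02 in KO and 2.74 in WT, from 164 and 50 tags, a ratio of 3.29 (2.08 to 5.37) and the widest of the measured members for this mark. Gipc1 ends 1984 bases before Ptger1, so signal near its start cannot be assigned to 1 gene.

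Hpgd encodes 15-hydroxyprostaglandin dehydrogenase, which inactivates prostaglandin E2 (chromosome 8, 56294585 to 56321043, mm10, plus strand). Its H3K27ac was 2.19 in KO and 4.88 in WT in the first pair, from 40 and 88 tags, and 2.63 in KO and 2.30 in WT in the vitro pair, from 46 and 40. The ratio was 0.449 (0.251 to 0.778) in the first pair and 1.14 (0.601 to 2.2) in the vitro pair. Hpgd was the least acetylated member in the KO library in the first pair and in the vitro WT library. Its H3K27me3 was 2.86 in KO and 4.71 in WT, a ratio of 0.606 (0.358 to 1.01).

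For H3K27me3 as a whole, 2 of the 8 genes measured were at least 1.5-fold higher in KO (Ptger1 and Ptger4) and 0 were lower, beside 30.1% higher and 16.8% lower among 19069 genes. That share of higher genes is close to the background. Neither Ptgs2 nor Pla2g4a, the genes with more H3K27ac in both pairs, was among them. CG content did not order the mark: Ptger3 and Ptger4, with 27 and 25 CG dinucleotides, had 46.8 and 8.58 in KO and 40.4 and 4.22 in WT, while Ptger2 with 3 had 18.5 in KO and 18.0 in WT.

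**Figure D3:**
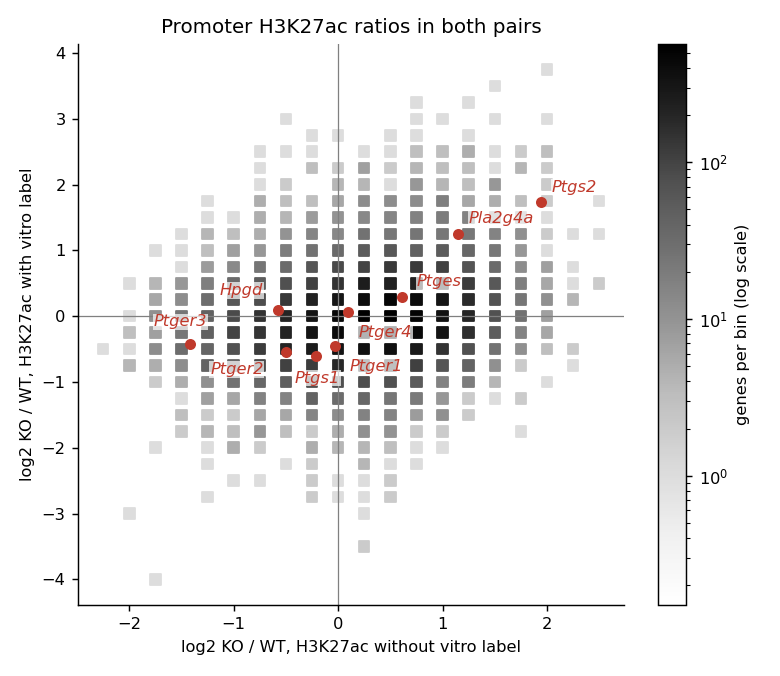
Log2 ratio of KO over WT promoter H3K27ac without the vitro label (x axis) and with it (y axis), with the floor added; grey squares are bins of the 17384 genes measured in both pairs, shaded by their number on a log scale, and red points are the 9 genes. Ptgs2 (1.94 and 1.73) and Pla2g4a (1.15 and 1.25) lie in the upper right, and Ptger3 (-1.42 and -0.43) at the left.

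The 2 H3K27ac pairs come from different libraries, so a ratio past 1.5-fold in both is a repeat across pairs, though not a replicate of 1 condition. Ptgs2 and Pla2g4a were higher in both, 2 of 9, where 913 of 17384 genes (5.25%) were. With the floor added, no member was at least 1.5-fold lower in both (2.29% of genes) and none was called in opposite directions (3.49%). Ptgs1, Ptger1, Ptger2 and Ptger3 had ratios under 1 in both pairs. Those of Ptger2 (0.577 and 0.498) and Ptger3 (0.207 and 0.643) passed 1.5-fold in both before the floor was added. Ptger2 also did with a pseudocount 5 times smaller (log2 -0.71 and -0.86). The share of all genes lower in both under these looser rules was not counted, so the 2.29% is no background for them. The interval of the Ptger3 ratio in the vitro pair, 0.399 to 1.02, also included equal signal.

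Ptgs2 and Pla2g4a are neighbours on chromosome 1, divergently oriented with 138741 bases between them. Within 1000 kb of the Ptgs2 start the table held 8 rows with coordinates, a window chosen after the values were seen, and 6 of them were measured in both H3K27ac pairs. The 4 at least 1.5-fold higher in KO in both were Pla2g4a, Ptgs2, Ptgs2os and Ptgs2os2. Ptgs2os starts 68 bases from Ptgs2 on the other strand, and its window covers nearly the same bases (23.5 in KO and 3.66 in WT, and 53.2 in KO and 14.3 in WT in the vitro pair), so it is no separate measurement. Ptgs2os2, an antisense transcript gene that starts 64.9 kb beyond the Ptgs2 start, had a window of its own, with 26.9 in KO and 6.82 in WT in the first pair and 46.7 in KO and 2.07 in WT in the vitro pair. Its log2 ratios were 1.58 and 3.53. The next promoters, Tpr and Odr4, lie 293 kb away, share a window region and had log2 ratios of 0.62 and 0.59 without the vitro label and 0.16 each with it. Prg4, 366 kb away, lay under the floor in the first pair with 1.31 in KO and 5.10 in WT, and 3.32 in KO and 1.95 in WT in the vitro pair. The higher KO acetylation was thus measured at 3 separate promoter windows over 204 kb from start to start. At the promoters beyond, Tpr and Odr4 also passed 1.5-fold in the first pair, as 33.3% of all genes measured did (median log2 0.317). Prg4 and, 893 kb away, Hmcn1 (1.205 in KO, 2.33 in WT) lay under the floor in that pair, lower in KO. Where the higher KO acetylation ended was not tested. In the vitro pair no measured ratio beyond reached 1.5-fold once the floor was added (Prg4 0.41 in log2).

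**Figure D4:**
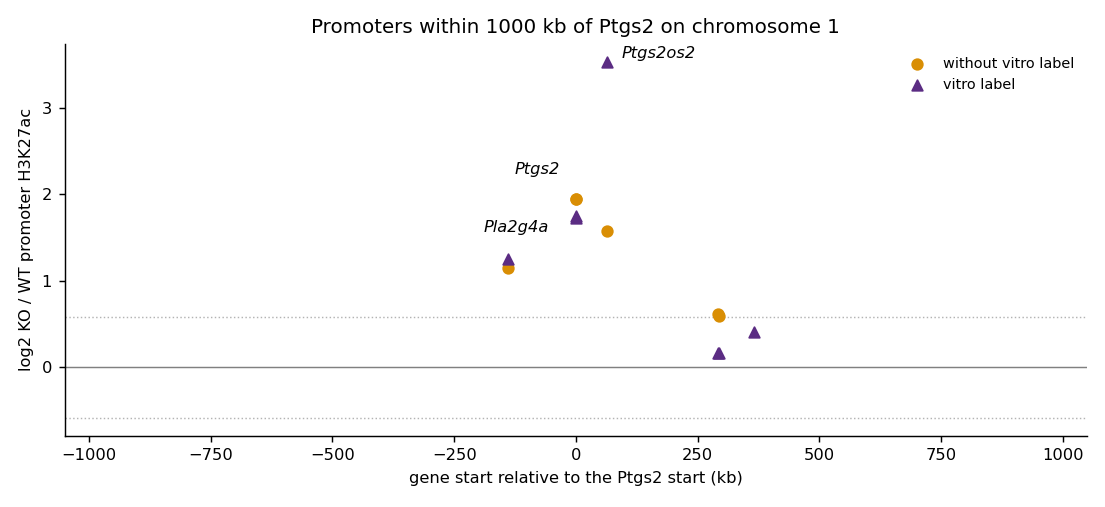
Log2 ratio of KO over WT promoter H3K27ac (y axis, floor added) for each measured gene against the distance of its start from the Ptgs2 start (x axis, kb); circles are the pair without the vitro label, triangles the vitro pair, and dotted lines mark 1.5-fold. Pla2g4a, Ptgs2 with Ptgs2os, and Ptgs2os2 lie above the upper line in both pairs, and Tpr and Odr4 at 293 kb lie at 0.62 and 0.59 and at 0.16.

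Around the other members, neighbours were alike or unlike the member. Prrx2, 8220 bases from Ptges, had H3K27ac log2 ratios of 0.64 and 0.65, beside 0.61 and 0.29 at Ptges. Zranb2, 18482 bases from Ptger3, had 0.33 without the vitro label, beside -1.42 at Ptger3, and -1.50 with it. Ttc33 overlaps the annotated span of Ptger4, and its promoter had 32.04 in KO and 8.21 in WT in the first pair, log2 1.62, beside 0.09 at Ptger4.

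The vitro label also separated the members, in KO and in WT. These comparisons use the same libraries as those above and are not independent of them. In KO, 3 members were at least 1.5-fold higher without the vitro label (Ptgs1, Ptger1 and Ptger2) and 3 lower (Ptgs2, Ptges and Pla2g4a), where 26.3% of genes were higher and 16.5% lower. In WT, 3 were higher (Ptgs1, Ptger2 and Ptger3) and the same 3 lower, where 16.0% were higher and 30.1% lower. Ptgs2 had 23.3 without the vitro label and 51.8 with it in KO, a ratio of 0.451 (0.381 to 0.532), and 3.66 and 14.1 in WT, a ratio of 0.259 (0.171 to 0.383). Ptges had 17.9 without the label and 38.5 with it in KO, a ratio of 0.465 (0.383 to 0.562), and 10.6 and 31.1 in WT, a ratio of 0.34 (0.266 to 0.431). Pla2g4a had 7.45 and 14.5 in KO, a ratio of 0.515 (0.378 to 0.697), and 1.55 and 4.83 in WT, a ratio of 0.321 (0.162 to 0.601). These 3 promoters all had more H3K27ac under the vitro label in both genotypes. Their genes encode 1 enzyme for each step from membrane lipid to prostaglandin E2. Ptgs1 ran the other way, with 9.04 without the label and 3.32 with it in KO and 10.98 and 6.15 in WT. What else differed between those libraries was not given in the labels.

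Gene-body H3K36me3 was lower in KO at the cyclooxygenase genes and at Ptger4. Of the 7 members measured, 3 were at least 1.5-fold lower in KO (Ptgs1, Ptgs2 and Ptger4) and 1 higher (Ptger1), beside 30.3% lower and 27.1% higher among 15551 genes. The median log2 ratio of those genes was -0.0763, and the summed signal of all genes in KO was 0.896 of that in WT. The scale of the values is not stated, so a loss of the mark over the whole genome could not be judged from them. Tags could be recovered where the length of the gene body behind a value was found. Ptgs1 had 7.28 in KO and 22.7 in WT, from 450 and 1416 tags over 21846 bases, a ratio of 0.321 (0.275 to 0.373). Its WT level lay at percentile 96.4 of all genes and was the highest of the 9. Ptgs2 had 5.77 in KO and 13.9 in WT, from 134 and 326 tags over 8204 bases, a ratio of 0.415 (0.308 to 0.555), so this mark and promoter H3K27ac differed in opposite directions at Ptgs2. Ptger4 had 0.720 in KO and 7.40 in WT, from 22 and 228 tags over 10789 bases, a ratio of 0.0974 (0.0473 to 0.181).

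**Figure D5:**
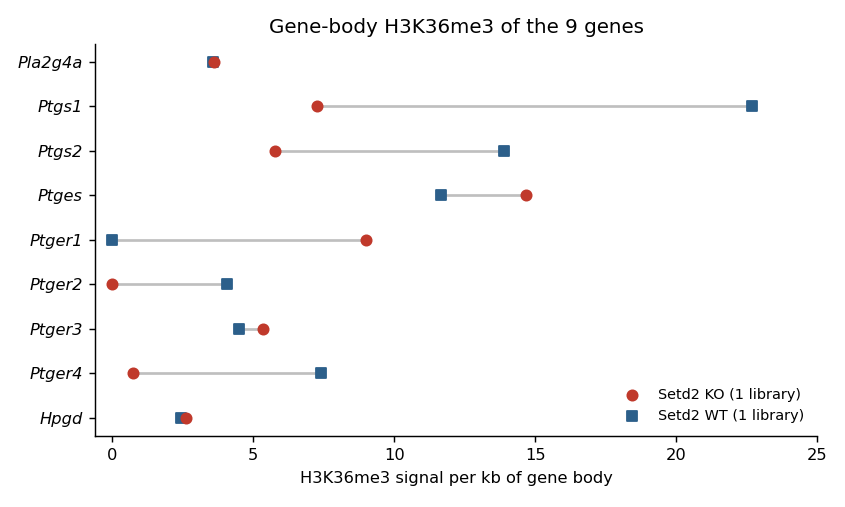
H3K36me3 signal per kilobase of gene body (x axis) for the 9 genes (rows), with circles for the KO library and squares for the WT library, 1 library each. Ptgs1 (7.28 in KO, 22.7 in WT) and Ptgs2 (5.77 in KO, 13.9 in WT) are lower in KO, and Pla2g4a (3.61 in KO, 3.58 in WT) is level.

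The other gene bodies differed by less than 1.5-fold or lay at the limit of the data. Pla2g4a, the longest at 131672 bases, had 3.61 in KO and 3.58 in WT, from 1346 and 1348 tags, a ratio of 1.01 (0.905 to 1.12). Ptger3 had 5.34 in KO and 4.48 in WT over 77940 bases, a ratio of 1.19 (1.06 to 1.35), and Ptges 14.7 in KO and 11.7 in WT over 13827 bases, a ratio of 1.26 (1.05 to 1.5). The annotated span of Ptges is 40393 bases, so its value covers the shorter stretch that begins at the printed promoter's start. Hpgd lay under the floor with 2.61 in KO and 2.43 in WT. Ptger1 had 8.98 in KO, and WT was listed at 0. Ptger2 was listed at 0 in KO, beside 4.05 in WT. Of genes within 10% of the length of Ptger2, 14.3% had a 0 in KO and 20.2% in WT, and of those of the length of Ptger1 39.5% and 49.9%, so a 0 in 1 library was common there.

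Counting error understates how far gene-body ratios scatter. Among 940 measured genes of like length to Ptgs1 the log2 ratio had an SD of 1.13, and Ptgs1 at -1.35 lay at percentile 12.9. Among 625 like Ptgs2 the SD was 1.87 and Ptgs2 at -0.98 lay at percentile 34.9, and among 789 like Ptger4 the SD was 1.63 and Ptger4 at -1.58 lay at percentile 20.8. The ratios at Ptgs2 and Ptger4 were therefore within 1 SD of genes of their length, and that at Ptgs1 just beyond it. For the 357 genes as long as Pla2g4a the SD was 0.47.

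The wider pathway was listed with the same prior knowledge, and its H3K27ac counts are to be read beside 33.3% of all genes higher and 11.5% lower in the first pair, and 10.9% higher and 13.7% lower in the vitro pair. Of 19 other phospholipase A2 genes, 7 of 15 measured were higher in KO and 1 lower without the vitro label, and 2 of 17 higher and 8 lower with it (median log2 ratios 0.31 and -0.25, beside 0.32 and -0.07 over all genes). The extremes were Pla2g3, a secreted form, with 9.47 in KO and 2.55 in WT, and Pla2g2f with 1.64 in KO and 12.3 in WT without the label. With it they were Pla2g7, the enzyme that degrades platelet-activating factor, with 35.8 in KO and 4.998 in WT, and Pla2g4b with 7.95 in KO and 17.7 in WT. Of the 8 other terminal prostanoid synthases, 1 of 7 measured was higher and 1 lower without the vitro label, and 0 higher and 3 lower with it. Ptges2, a second prostaglandin E synthase, had 60.2 in KO and 35.0 in WT without the label and 48.9 in KO and 44.8 in WT in the vitro pair. The thromboxane synthase gene Tbxas1 had 3.94 in KO and 17.1 in WT without the label, and Prxl2b, a prostaglandin F synthase, 2.17 in KO and 6.67 in WT in the vitro pair.

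Receptors for the other prostanoids numbered 5, of which 1 of 4 measured was higher and 0 lower without the vitro label, and 0 of 5 higher and 2 lower with it. The prostacyclin receptor gene Ptgir had 21.5 in KO and 7.04 in WT in the first pair, and the prostaglandin D2 receptor gene Ptgdr 0.458 in KO and 4.14 in WT in the vitro pair. Among 6 transport and catabolism genes, 3 were higher and 2 lower without the label, and 0 higher and 2 lower with it. Abcc4, an exporter of prostaglandins, was the highest of these in the first pair (18.2 in KO, 7.98 in WT) and the lowest in the vitro pair (13.8 in KO, 24.6 in WT). In the leukotriene and lipoxygenase branch, 1 of 11 measured genes was higher and 3 lower without the label, and 1 of 12 higher and 0 lower with it. Alox5, the 5-lipoxygenase gene, was the lowest of the first pair with 2.30 in KO and 7.82 in WT.

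For H3K27me3, beside 30.1% of all genes higher and 16.8% lower, these lists had 1 of 17 phospholipases higher and 4 lower, 2 of 7 synthases higher and 1 lower, 2 of 5 receptors higher and 0 lower, 1 of 6 transport and catabolism genes higher and 2 lower, and 3 of 14 leukotriene genes higher and 3 lower. Tbxas1 had 9.95 in KO and 1.65 in WT, so its promoter differed in both marks. For H3K36me3, beside 27.1% of all genes higher and 30.3% lower, the counts were 3 of 16 phospholipases higher and 3 lower, 0 of 7 synthases higher and 3 lower, 2 of 2 receptors higher with 2 of the 5 at 0 in WT, 0 of 6 transport and catabolism genes higher and 3 lower, and 2 of 9 leukotriene genes higher and 2 lower.

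Markers of the labelled cell type were present at the promoters, with H3K27ac at the keratin genes Krt8 of 82.5 in KO and 37.4 in WT and Krt19 of 77.7 in KO and 35.7 in WT in the first pair, and with 0 of 12 epithelial markers at 0. The epithelial extremes were Krt8 and Cldn4 (6.57 in KO, 10.5 in WT) in the first pair, and Ocln (5.72 in KO, 2.87 in WT) and Cldn7 (6.29 in KO, 42.9 in WT) in the vitro pair. Of 13 fibroblast markers, 6 of 12 measured were higher in KO and 2 lower in the first pair, beside 33.3% and 11.5% of all genes, with summed H3K27ac of 246 in KO and 114 in WT. In the vitro pair 5 of 9 were higher and 1 lower, beside 10.9% and 13.7%, with sums of 182 in KO and 49.5 in WT. The extremes were the hyaluronan synthase gene Has1 (44.8 in KO, 9.48 in WT) and Postn (3.07 in KO, 7.65 in WT) in the first pair, and the collagen genes Col5a1 (63.7 in KO, 5.98 in WT) and Col1a2 (1.26 in KO, 3.68 in WT) in the vitro pair. Leukocyte markers had 2 of 11 higher and 3 lower (sums 128 in KO and 97.7 in WT) and 2 of 11 higher and 2 lower with the label (189 and 121). The extremes were Cd68 (46.0 in KO, 16.2 in WT) and the B cell gene Ms4a1 (0.877 in KO, 6.87 in WT) in the first pair, and Ly6g (56.8 in KO, 10.6 in WT) and Laptm5 (1.89 in KO, 18.9 in WT) in the vitro pair. The defining leukocyte gene Ptprc, named outside the rule, lay under the floor in the first pair with 3.45 in KO and 1.61 in WT. In the vitro pair Ptprc was over the floor, with 2.97 in KO and 2.585 in WT, a log2 ratio of 0.11. Endothelial markers had 1 of 6 higher and 2 lower (54.8 in KO and 60.6 in WT) and 1 of 6 higher and 1 lower with the label (50.3 and 27.2), with extremes at Pecam1 (16.5 in KO, 9.09 in WT) and Cdh5 (2.85 in KO, 15.5 in WT) in the first pair and Flt1 (30.6 in KO, 5.17 in WT) and Vwf (2.52 in KO, 5.06 in WT) in the vitro pair. None of the epithelial, fibroblast, leukocyte or endothelial markers was at 0 in any H3K27ac library, where 1.65% to 5.43% of all genes were. The lack of a 0 therefore does not show which cell types were present. The part of other cell types in the results was not tested, and a difference in the share of cells cannot be told apart from one in signal per cell.

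Over all 8 libraries, genes were ranked by Euclidean distance of log2 signals. Those nearest to Ptgs2 were Slc30a4 (a zinc transporter, distance 1.23), Mtch2 (1.27), Flywch1 (1.31), Elk3 (an ETS transcription factor, 1.37) and Nprl3 (1.39). The median distance to all genes was 4.59, and the nearest genes lie under it by selection. Ptgs2 lay further from its nearest gene than any other member did. Slc30a4 had H3K27ac of 19.8 in KO and 10.3 in WT in the first pair and 56.4 in KO and 19.9 in WT in the vitro pair. The nearest to Ptges were Csf1, the macrophage growth factor (0.76), Rpl26 (0.98) and Gm15772 (0.99), of which the last 2 had equal promoter values. Pla2g4a was nearest to Tmprss11f (0.84), Zfp60 (0.93) and Scp2 (0.96), and Ptgs1 to Gm13205 (0.95), A530010L16Rik (1.01) and Uroc1 (1.02). Ptger3 was nearest to Tcf20 (0.73), Gsg1l (0.74) and Zdhhc14 (0.81), Ptger4 to Slc46a1 (0.69), Selenbp1 (0.88) and Ccdc43 (0.89), and Ptger1 to Arrdc4 (0.85), Nxt1 (0.92) and Isoc2b (0.93). Ptger2 was nearest to Lncbate10 (0.62), 2810032G03Rik (0.76) and Il25 (0.81), and Hpgd to Rpgrip1 (0.54) and Col4a5 (0.60), among others. Scp2 had H3K27ac of 7.06 in KO and 1.55 in WT in the first pair, as Pla2g4a had 7.45 and 1.55.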

How the data were processed

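The authors deposited CUT&Tag signal as a single table of 25450 rows, whose 8 signal columns are 1 library each. Per the file headers the signal columns are promoters for H3K27ac and H3K27me3 and gene bodies for H3K36me3; the scale is not stated there. Per the submitters' processing notes, Bowtie2 2.4.2, HOMER and MACS2 2.2.7.1 were used with the build mm10, in an order and with settings that the notes do not state. Promoter values times 6000 were whole hundredths and whole multiples of 1 step a library (0.329 to 0.345) in 100% of values, within 0.0055, so tags were recovered. For H3K36me3, 99.5% to 99.6% of the rows used gave whole tags. Overlapping windows count a tag more than once.

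The 25th percentile of the positive values of a pair served as its floor. It was added to both libraries before log2, which understates differences at low values, and a gene was measured if its pair mean reached it. Floors were 3.27 per kilobase for the first H3K27ac pair (no vitro label), 2.17 for the vitro pair, 1.54 for H3K27me3 and 2.63 for H3K36me3. Calls were at 1.5-fold. With 1 library per group no count test was run on the recovered tags and no p-value is given. Named genes were all 9 members, the highest and lowest member of each list (chiefly for H3K27ac), rows within 50 kb and opposite-strand rows of members, and the nearest 5 (Ptgs2) or 3 genes over all libraries. Setd2, Krt19 and Ptprc are named outside it as checks of the labels and cell type, and some results under it are not reported here. Rows kept their own names. The members and lists were chosen with earlier results of these data known. The code was tested on simulated data. Python 3.11.15, numpy 2.4.6, pandas 2.3.3, scipy 1.17.1 and matplotlib 3.10.9 were used. Alternatives were 6 planned settings and 1 chosen after seeing the data, an equal sum over all genes.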

Additional observations from a re-analysis of the deposited data

How the results depend on the processing

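Over 7 alternatives the members gave 338 log2 ratios, of which 0 reversed a call and 44 crossed 1.5-fold. Ptgs2 stayed at least 1.5-fold higher in KO for H3K27ac throughout, from 0.99 to 2.48 in log2 without the vitro label and from 1.32 to 1.84 with it. Pla2g4a ranged from 0.41 to 1.88 in the first and was at least 0.69 in the second. Without the vitro label it fell short of 1.5-fold with the larger pseudocount, and was not measured with the filter at the median. Ptges without that label fell short in 4 alternatives. Of 84 counts of members, 59 stayed within 1.5 times the main count and 25 did not. No paired analysis was possible because the groups compared shared a single replicate number. A fit across the settings, whose libraries are not replicates, was not run.

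A pseudocount 5 times smaller gave 3 members lower in H3K27ac without the vitro label, 2 lower in the vitro pair and 1 lower in H3K27me3, with Ptger2 lower in both H3K27ac pairs (-0.71 and -0.86). One 5 times larger gave 1 higher without the vitro label, 0 lower in the vitro pair, 1 higher in H3K27me3, 1 lower in H3K36me3 and 0 higher between the settings in KO and 0 in WT. Without the filter on low values, 1 was lower in H3K27me3. A filter at the median gave 0 lower in either H3K27ac pair, 0 higher in H3K36me3 and 1 higher between settings in KO, with fewer genes measured. Centring on the median gave 3 lower without the vitro label, 0 lower with it, 1 lower in H3K27me3 and 1 higher between settings in KO. Quantile normalization gave 0 lower in the vitro pair, 1 lower in H3K27me3 and 1 higher between settings in KO. An equal sum over all genes gave 3 lower without the vitro label, 1 higher and 1 lower in H3K27me3, and 6 higher between settings in WT. Beyond the fewer genes of the stricter filter, the cause was not tested. Depth limits most the promoter values on 46 tags or fewer, at Pla2g4a, Ptger2, Ptger3 and Hpgd, and the 22 tags over the Ptger4 body.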
